A study of Mus musculus with 4 samples.

Results

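Cathepsins are the proteases of the lysosome, and cystatin C is a secreted protein that blocks those of the cysteine class. The 10 genes described here were listed by name, by a rule that used no measured value, though earlier results of these data were known. They are the cysteine cathepsins Ctsb, Ctsc, Ctsh, Ctsk, Ctsl, Ctss and Ctsz, the aspartic cathepsin Ctsd, the serine carboxypeptidase Ctsa, and Cst3, which encodes cystatin C. They are 10 of the 55536 genes in the deposited gene tables, 22028 of which are protein-coding. RNA with poly(A) tails was sequenced from bone marrow-derived macrophages, phagocytes grown in culture from marrow precursors of C57BL/6J mice. All 4 libraries formed 1 group, biological replicates 1 to 4, from cells exposed for 60 minutes to a stimulus at 100 ng/mL. The labels call the stimulus lipid A in one field and lipoprotein A in others, and it is called the stimulus here. The animals' age was not collected and no genetic change is named. No unstimulated cells were analysed here, so no response was measured.

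Cathepsins are made as inactive precursors, carried to the lysosome largely by mannose 6-phosphate receptors, and activated in its acid interior. In macrophages they degrade engulfed and recycled protein and trim antigens and the invariant chain for presentation by MHC class II. Cystatins bind the active site of cysteine cathepsins and leave the aspartic and serine enzymes untouched.

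The 4 libraries held 26917324 to 39438414 gene counts, lowest in replicate 1 and highest in replicate 4. Ribosomal RNA, with that of mitochondria included and not separated, took 12.4% of counts in replicate 1 and 3.43% to 7.28% in the others. All 8 macrophage markers reached 1 TPM in every library and summed to between 18615 and 33469 TPM. Summed dendritic cell, fibroblast, B cell and T cell markers stayed at or under 7.17 TPM in every library, while summed neutrophil markers ranged from 69.4 to 729 TPM, highest in replicate 3. The donor label is shared by every library, and no source states that separate animals or cultures were used. The p-values given here therefore reflect only how these samples differ from each other, and that spread may be technical. In bulk RNA, fewer cells of a type and less RNA per cell cannot be told apart.

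Cathepsin transcripts stood high in these macrophages. Together the 10 genes took 2.88%, 3.52%, 3.12% and 3.24% of all TPM (a relative transcript level, corrected for transcript length and for the total of the library) in replicates 1 to 4. Their summed level was 31903 ± 2666 TPM (SD, n = 4), and Ctsb and Ctsd made up 70.9% ± 2.37 of it. The mean level reached 100 TPM for 9 of the 10, and Ctsk was the exception. The median of the 10 mean levels was 1169 TPM, beside 11.3 TPM over the 12626 genes that had 10 or more counts on average. The plot of levels by gene shows the groups of values that follow.

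**Figure D1:**
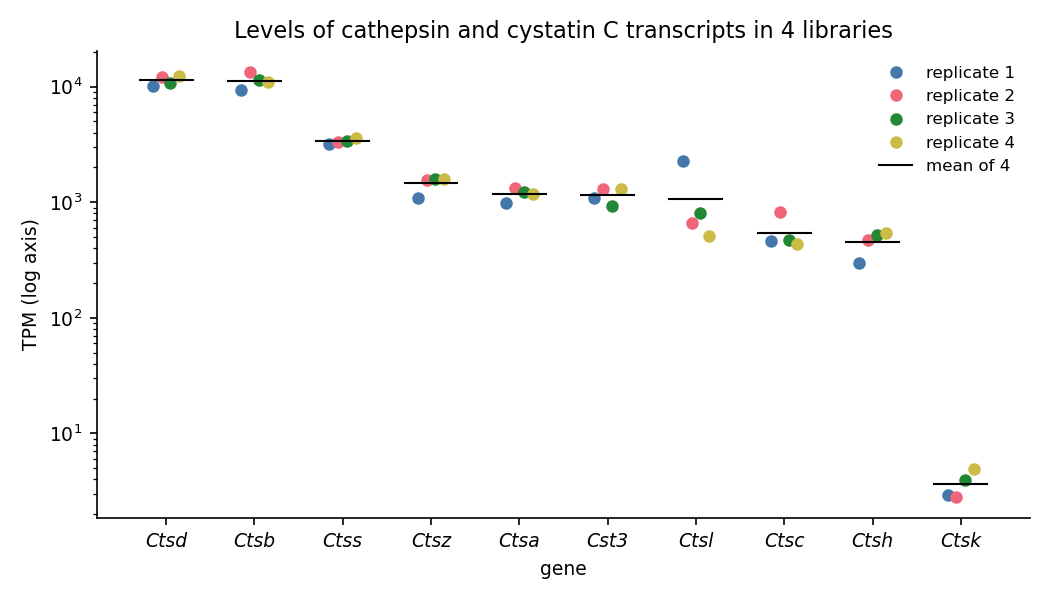
TPM of each gene (log axis) in the 4 libraries, with a point per library and a bar at the mean of 4. Ctsd and Ctsb have means of 11346 and 11307 TPM, Ctsk lies at 2.84 to 4.94 TPM, and Ctsl has 1 high point, replicate 1 at 2254 TPM.

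Ctsd, which encodes the main aspartic protease of the lysosome, stood at 10078, 12254, 10789 and 12263 TPM in replicates 1 to 4. Its mean, 11346 ± 1093 TPM (SD, n = 4), ranked 6 among protein-coding genes. The gene, ENSMUSG00000007891.16, lies on chromosome 7 at 142375911-142388038 on the minus strand of mm10.

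Ctsb, a cysteine protease that cuts both within proteins and at their ends, stood at 9322, 13410, 11519 and 10977 TPM, with a mean of 11307 ± 1685 and rank 7. Ctsb was above Ctsd in 2 of the 4 libraries and below it in the other two, so their order was not resolved. Ctsb (ENSMUSG00000021939.8, chr14:63122462-63145923, plus strand) is also the gene whose level depends most on which transcript length is used, as described with its transcripts.

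Ctss, an endopeptidase that stays active at neutral pH and removes the invariant chain in antigen-presenting cells, had the tightest values of the set. They were 3178, 3349, 3377 and 3624 TPM, with a mean of 3382 ± 184 (SD, n = 4). All 4 lay below the lowest Ctsb value and above the highest Ctsz value. The mean of Ctsb was 3.34 times that of Ctss, and the mean of Ctss 2.31 times that of Ctsz. Ctss (ENSMUSG00000038642.10, chr3:95526786-95556403, plus strand) and Ctsk (ENSMUSG00000028111.4, chr3:95499256-95509362, plus strand) are neighbours in the same orientation.

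Ctsz, a carboxypeptidase of the cysteine class, stood at 1095, 1573, 1587 and 1595 TPM, a mean of 1463 ± 245 (SD, n = 4). Replicates 2 to 4 were nearly level and replicate 1 lay below them. Ctsa, a serine carboxypeptidase that also protects beta-galactosidase and neuraminidase in a lysosomal complex, stood at 989.9, 1323, 1229 and 1188 TPM, a mean of 1183 ± 140. Ctsz was above Ctsa in all 4 libraries, by 1.24 times in the mean, though their ranges overlapped. With all counts set on the length of each gene's main transcript, an alternative chosen after the values were seen, Ctsa stood at 787 ± 111 TPM. Its values, 641 to 892 TPM, then overlapped neither those of Ctsz nor those of Cst3. Both genes lie on chromosome 2, Ctsa (ENSMUSG00000017760.16) at 164832873-164841032 on the plus strand and Ctsz (ENSMUSG00000016256.10) at 174427493-174439039 on the minus strand.

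Cst3, the gene of the secreted inhibitor cystatin C, stood at 1081, 1309, 929 and 1301 TPM, a mean of 1155 ± 184 (SD, n = 4). Its range overlapped those of Ctsa and Ctsl, but not that of Ctsa with counts set on main transcript lengths. The gene, ENSMUSG00000027447.6, lies at chr2:148871722-148875692 on the minus strand. Set against the 7 cysteine cathepsins together, whose levels summed to 16612, 20290, 18291 and 17686 TPM, Cst3 had 0.0651, 0.0645, 0.0508 and 0.0735 transcripts for each cysteine cathepsin transcript. The mean ratio was 0.0635 ± 0.00942 (SD, n = 4), lowest in replicate 3 and highest in replicate 4. With Ctsb left out of the sum, an alternative chosen after the values were seen, the ratio was 0.167. These are ratios of RNA, and say nothing of protein or activity.

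Ctsl, an endopeptidase that processes both antigens and other lysosomal enzymes, stood at 2254, 667, 815 and 513 TPM, a mean of 1062 ± 804 (SD, n = 4). Replicate 1 was far above the other libraries, so that Ctsl ranked 36 among protein-coding genes there and 191, 147 and 242 in replicates 2 to 4. Ctsl made up 13.6% of the cysteine cathepsin TPM in replicate 1 and 3.29%, 4.46% and 2.90% in the others. Ctss exceeded Ctsl 1.41-fold in replicate 1 and 5.02-, 4.14- and 7.06-fold in replicates 2 to 4, so the order of this pair held while its size did not. The gene is ENSMUSG00000021477.9, at chr13:64359337-64370890 on the minus strand.

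Ctsc, which encodes dipeptidyl peptidase I, the enzyme that activates the serine proteases of granulocytes, stood at 461, 821, 469 and 432 TPM, a mean of 546 ± 184 (SD, n = 4). Replicate 2 was high and the other libraries were nearly level. The neutrophil markers were highest in replicate 3. Among them Elane, Mpo and Prtn3 did not exceed 1.43 TPM in any library, while Ngp reached 66.3 TPM and Ltf 19.4 TPM in replicate 3. The part of granulocytes and their precursors in the Ctsc values was not tested. Ctsh, an aminopeptidase, stood at 299, 468, 521 and 541 TPM, a mean of 457 ± 110, with replicate 1 lowest. Ctsc was above Ctsh in 2 of the 4 libraries. Ctsc (ENSMUSG00000030560.17) lies at chr7:88278085-88310888 and Ctsh (ENSMUSG00000032359.14) at chr9:90054152-90076089, both on the plus strand.

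Ctsk, the collagen-degrading cathepsin best known from osteoclasts, stood at 2.96, 2.84, 3.97 and 4.94 TPM, a mean of 3.68 ± 0.982 (SD, n = 4). No Ctsk value came near the lowest Ctsh value, and the mean of Ctsh was 124 times as high. Among osteoclast markers Calcr had 0 counts in every library, Oscar did not exceed 0.36 TPM, and Acp5 stood at 22.4 ± 5.31 TPM. Atp6v0d2, a proton pump subunit, was the most abundant of them at 136, 84.0, 414 and 174 TPM. Ctsk was highest in replicate 4 and Atp6v0d2 in replicate 3, and the part of osteoclast-like cells in the Ctsk level was not tested.

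To compare libraries gene by gene, counts were scaled to CPM, counts relative to the total of a library, with edgeR's TMM factors and tested against counting noise with a chi-square test adjusted over all 12626 genes. All 10 genes varied by more than counting noise, as did 88.6% of the genes tested, so the excess is the rule in these libraries. A gene was called variable if it passed this test and the ratio of its highest to its lowest scaled count was 2 or more. That held for 2 of the 10, Ctsl and Ctsh, and for 33% of all genes tested, so the cathepsin and cystatin C genes did not exceed the background. The median range was 1.54-fold over the 10 genes and 1.68-fold over all genes tested, and the median SD of log2(CPM + 1) was 0.28 and 0.27.

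Ctsl had scaled counts of 1959, 600.1, 926 and 588 CPM in replicates 1 to 4, a 3.33-fold range from replicate 4 to replicate 1. Ctsh had 198, 321, 455 and 401 CPM, a 2.29-fold range from replicate 1 to replicate 3. The 2 genes therefore differed in opposite directions in replicate 1, the library highest for Ctsl and lowest for Ctsh. Ctsc, at 704, 1401, 833 and 775 CPM, had a range of 1.99-fold and fell just under the threshold. Without replicate 1, neither gene was called variable, when 16.1% of all genes were.

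Replicate 1 was the lowest library on the scaled counts for 7 of the 10 genes, beside 32.6% of all genes tested. The exceptions were Ctsk, lowest in replicate 2 (25.4% of all genes), Cst3, lowest in replicate 3 (24.7%), and Ctsl, lowest in replicate 4 (17.2%). The median of the 10 deviations from each gene's own mean in replicate 1 was -0.29 on the log2 scale, and over all genes tested it was 0.01. Replicate 4 was the highest library for 5 of the 10, against 21.4% of all genes. Replicates 2 and 3 were highest for 2 genes each (22.8% and 20.1% of all genes), and replicate 1 only for Ctsl (35.8%). Replicate 1 is also the library with the largest share of ribosomal RNA, and the part of that share in these values was not tested.

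**Figure D2:**
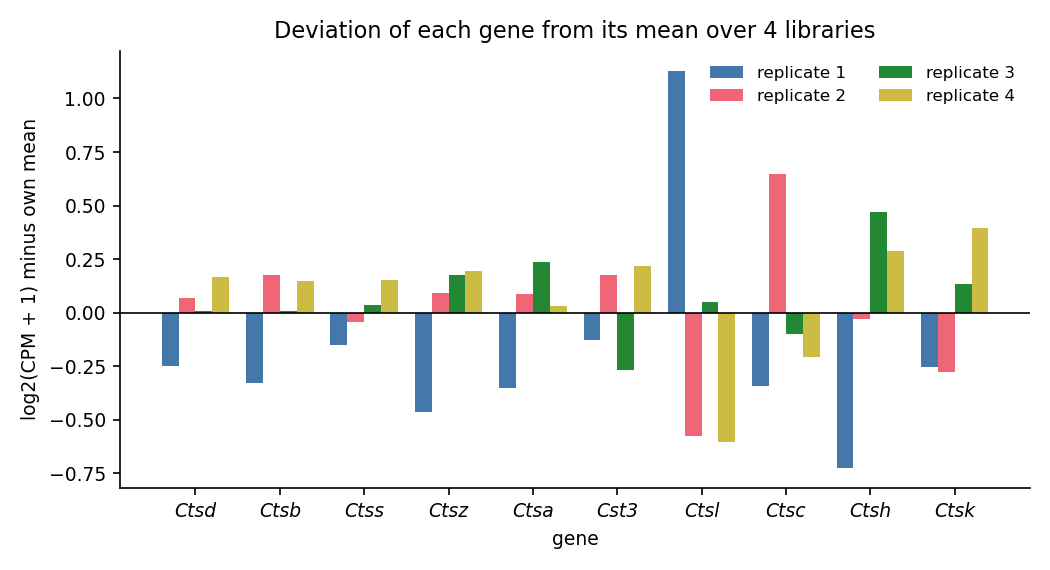
Deviation of each gene's log2(CPM + 1) from its own mean over the 4 libraries, with a bar per library. Replicate 1 is at 1.13 for Ctsl and at -0.72 for Ctsh, and replicate 2 is at 0.65 for Ctsc.

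The deposited lists of files record 6 read files for replicates 1 and 2 and 4 read files for replicates 3 and 4, a technical record that no source calls a batch. Between these pairs edgeR's quasi-likelihood test called 0 of the 10 genes, and 0% of 12701 genes in all (290 genes, 2.28%, had an unadjusted p below 0.05). None of the 10 had an unadjusted p below 0.05, and DESeq2 also called 0 of them, against 0.239% of 14616 genes. Ctsh was 0.72 higher on the log2 scale in the 4-file libraries (SE 0.34; edgeR adjusted p = 1.00). For Ctsl the difference was -0.75 (SE 0.60; edgeR adjusted p = 1.00), and without replicate 1 its sign turned, to 0.35. Ctsh, Ctsk, Ctss and Ctsz had scaled counts that did not overlap between the pairs, 4 of 10 beside 24.5% of all genes.

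For each variable gene, the 3 protein-coding genes with the nearest pattern were found among 6448 candidates with a mean of at least 10 TPM, as the Euclidean distance between log2 deviations over the 4 libraries. Nearest to Ctsl were Ezr, whose product ties actin to the cell membrane, at a distance of 0.07, the nucleolar protein gene Lyar at 0.08, and Ezh2, the catalytic subunit of Polycomb repressive complex 2, at 0.19. Ezr stood at 91.1, 26.9, 39.2 and 25.7 TPM, high in replicate 1 as Ctsl was, at a far lower level. Nearest to Ctsh were Timp2, which inhibits matrix metalloproteinases, at 0.08, the zinc exporter gene Slc30a1 at 0.10 and Lhfpl2 at 0.11. Timp2 stood at 243, 333, 521 and 352 TPM, lowest in replicate 1 and highest in replicate 3. With 4 libraries many genes share any pattern, so nearness is a description only.

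**Figure D3:**
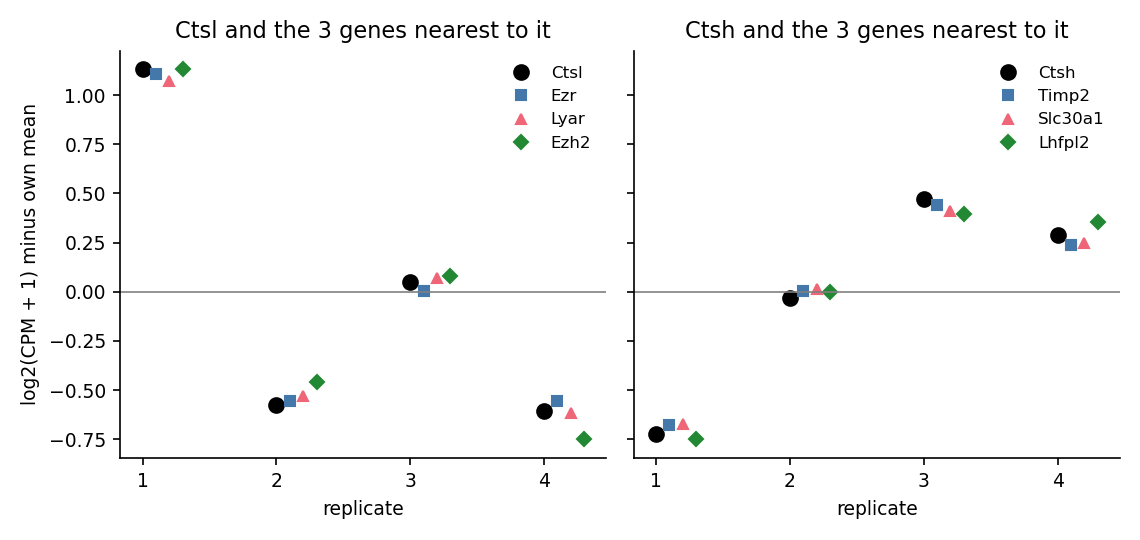
Deviation of log2(CPM + 1) from its own mean by replicate for Ctsl (left) and Ctsh (right), with the 3 genes nearest to each, drawn side by side within a replicate. Ctsl and its neighbours are highest in replicate 1, and Ctsh and its neighbours are lowest there.

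The transcript tables split each gene into annotated isoforms, and for Ctss and Ctsd the main isoforms differ in coding sequence by a short stretch. The pairs were chosen after the values were seen, and the sequences are from GENCODE M21 transcripts. The extra coding bases are printed in capitals within the flanking coding sequence, in the sense of the transcript.
Ctss-201: ccacgctgccatCAGaagatggctgtt
Ctss-202: ccacgctgccataagatggctgtt
Ctsd-202: ctactgGCAGGTGCACATGGACCAgttgga
Ctsd-201: ctactggttgga
The 3 extra bases of Ctss-201 lie at chr3:95529434-95529436 (plus strand) and the 18 extra bases of Ctsd-202 at chr7:142377333-142377350 (minus strand), and both keep the reading frame.

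Ctss had even isoform shares across libraries. Ctss-201, with the extra codon, made up 11.7%, 10.8%, 10.6% and 10.3% of Ctss TPM in replicates 1 to 4, and Ctss-202 the remaining 88.3%, 89.2%, 89.4% and 89.7%. The second quantification, made by another method from the same libraries, gave 12.1%, 11.0%, 10.6% and 10.3% for Ctss-201. The shares differed by less than 2 percentage points across libraries and methods.

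Ctsd-202, with 18 more coding bases, made up 70.0%, 73.0%, 99.3% and 73.5% of Ctsd TPM, so replicate 3 stood apart. In the second quantification its share was 95.3%, 94.7%, 99.6% and 99.3%, and replicate 3 no longer stood apart. Ctsd-202 was the main isoform in every library by both methods, while the size of the Ctsd-201 share depended on the method.

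Ctsl-201, with 1002 coding bases, made up 72.0%, 73.0%, 94.1% and 94.3% of Ctsl TPM. Ctsl-204 has 616 annotated coding bases, and among those of Ctsl-201 that it lacks is an internal stretch of 168 (chr13:64366925-64367092). It took 24.6%, 19.8%, 2.68% and 2.02%. The second quantification gave 35.4%, 28.1%, 0.148% and 1.57% for Ctsl-204. By both methods, applied to the same libraries, those with 6 read files were high and those with 4 were low, without overlap. No isoform was tested, and the share of all transcripts without overlap was not computed. On gene counts, 24.5% of all genes tested did not overlap between these pairs. Replicates 1 and 2 had similar Ctsl-204 shares although Ctsl itself was high in replicate 1 only.

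For Ctsc, the 2 main isoforms share only part of their coding sequence. Ctsc-201 has 1386 coding bases, Ctsc-203 has 411, and 318 are common to both. Ctsc-203 took 30.2%, 62.3%, 53.8% and 53.8% of Ctsc TPM, highest in replicate 2 and lowest in replicate 1, and the second quantification gave 28.1%, 58.5%, 51.7% and 52.1%. Expected counts assigned to Ctsc-201 were 11970, 12135, 11287 and 10929, before any scaling for depth, and those assigned to Ctsc-203 were 7209, 29771, 18570 and 18225. The high Ctsc level of replicate 2 thus lay in the short-coding isoform in this assignment.

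Ctsb-201, the 4743-base coding transcript, made up 60.6%, 57.8%, 56.3% and 66.1% of Ctsb TPM. The rest was almost all Ctsb-202, an 801-base transcript annotated as a retained intron, at 39.4%, 42.2%, 43.7% and 33.9%. In the second quantification Ctsb-202 took 56.9%, 56.1%, 44.2% and 45.4%. Because Ctsb-202 is short, its share raises the TPM of the gene: with all Ctsb counts set on the length of Ctsb-201, the mean was 7322 ± 987 TPM (SD, n = 4), below Ctsd at 11060 ± 1033 on the same footing. That alternative was chosen after the values were seen. Ctsb stood above Ctsd in the second quantification, at a mean of 9835 ± 1106 TPM against 8295 ± 1362 (SD, n = 4). Which mean was higher thus depended on the method.

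Ctsh-201 made up 52.8%, 55.2%, 80.6% and 57.8% of Ctsh TPM. Ctsh-202, annotated as a target of nonsense-mediated decay, took 23.4%, 21.2%, 17.1% and 21.3%, and the short Ctsh-204 took 20.8%, 20.4%, 0% and 19.6%. In the second quantification Ctsh-201 took 39.5%, 40.6%, 86.6% and 81.2%, so replicate 4 sided with replicate 3 there. Ctsh-202 took 23.0%, 22.2%, 5.34% and 2.54% by that method, and Ctsh-204 33.0%, 31.5%, 2.37% and 12.9%. The Ctsh-202 share in replicates 3 and 4 thus depended on the method. For Ctsa, Ctsa-202 was the main isoform at 50.1%, 50.7%, 60.3% and 48.1%, and the shorter Ctsa-210 took 32.0%, 30.1%, 16.2% and 28.0%. Ctsa-203 took 8.43%, 9.08%, 16.8% and 12.6%, above Ctsa-210 in replicate 3. In the second quantification Ctsa-203 was above Ctsa-210 in replicates 3 and 4, at 25.2% against 13.1% in replicate 4. Ctsk and Ctsz each have 1 annotated transcript.

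**Figure D4:**
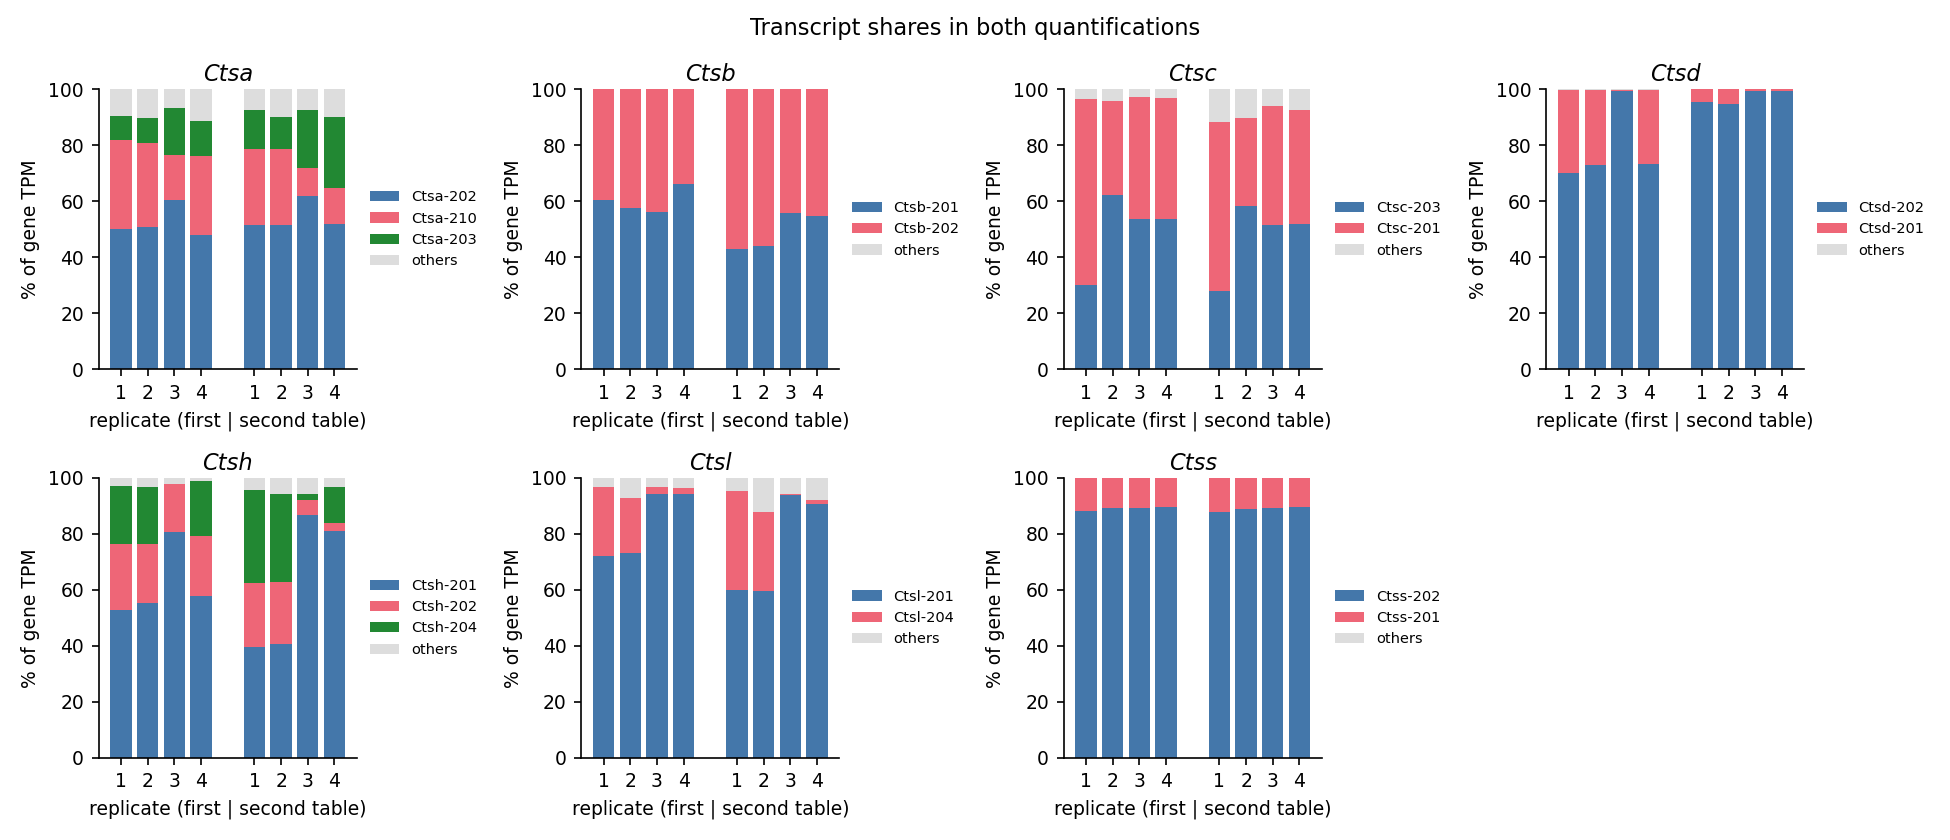
Percent of a gene's TPM in its main transcripts, as stacked bars for replicates 1 to 4 in the first transcript table (left 4 bars) and the second (right 4 bars). Ctss shares are level throughout, Ctsl-204 is large in replicates 1 and 2 only, and the Ctsd-201 share of the first table is near 0 in replicate 3.

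Genes that overlap the cathepsins in exons can share reads with them, and the strand setting is not given in the sources used here. Pltp, which encodes phospholipid transfer protein, overlaps Ctsa on the opposite strand by 495 exonic bases and stood at 552 ± 107 TPM (SD, n = 4). The other overlapping genes were lower: Neurl2 with Ctsa at 5.59 TPM, Fdft1 with Ctsb at 5.02 to 15.9, Gm49369 with Ctsd on the same strand at 22.7, and Nelfcd with Ctsz at 10.9. An antisense gene of Ctsl, Gm47123, shares 1742 exonic bases with it and was listed at 0 in all libraries. Reads of Ctsa and Pltp in the shared bases cannot be told apart without strand.

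RefSeq promoters (GRCm38.p6, 250 bases before to 50 after a start) were found for 8 of the 10 genes. They were searched on both strands for CACGTG, the E-box at the core of the CLEAR element bound by TFEB and related factors, and for the longer TCACGTGA, which contains it. CACGTG was in a window of Ctsa, Ctsd and Ctsl, 3 of 8 genes, and in 7.15% of 32851 promoters. TCACGTGA was in a window of Ctsa and Ctsd, and in 0.974% of promoters. For each gene the nearest match upstream of the start is printed with the E-box in capitals, to show the flanks that tell the 2 motifs apart.
Ctsa: agcaaactgtCACGTGatgcagatgc
Ctsd: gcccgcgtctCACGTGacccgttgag
Ctsl: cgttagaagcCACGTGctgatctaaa
They lie at chr2:164833751-164833776 (plus strand), chr7:142387910-142387935 and chr13:64370741-64370766 (both minus strand). The E-boxes begin 12, 98 and 236 bases upstream of the RefSeq start. The Ctsd window falls in exon 1 of Ctsd-202, and the Ctsl window outside Ctsl-201. The Ctsa window lies within the span of Ctsa-202 but not wholly inside any of its exons. Ctsa has a second match 5 bases after its start, and Ctsd one 245 bases upstream of its own. The motifs were chosen after the levels were seen, and a match is a description of letters only.

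GAGGAAG, a site type bound by the macrophage factor PU.1, was in windows of Ctsc, Ctsk and Ctss, 3 of 8 genes beside 13.6% of promoters. These 3 genes spanned the range of levels from Ctss at 3382 TPM to Ctsk at 3.68. TATAAA was in the Ctss window only, on the opposite strand, beside 13.6% of promoters.

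Of 14 other cathepsin genes, 2 reached 1 TPM in every library. Ctso stood at 25.8 ± 3.47 TPM (SD, n = 4), and Ctsf at 3.75, 16.7, 5.81 and 11.4 TPM, high in replicate 2 and low in replicate 1. Ctsf was called variable, with a 4.59-fold range, and so was Ctse, an aspartic protease at 0.31, 2.18, 0.91 and 2.58 TPM, with a 9.21-fold range. They were 2 of the 3 genes of this list with enough counts to be tested, beside 33% of all genes tested. The range of Ctse rests on 10 counts in replicate 1, its lowest library. The 9 genes of the placental cathepsin cluster had 0 counts in every library, and 3 counts in the shallowest library would be 0.111 CPM. Ctsg, a granulocyte serine protease, did not exceed 0.65 TPM.

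Of 23 other cystatins and related inhibitors, 19 were in the tables, 12 had 0 counts in every library, and 2 reached 1 TPM in every library. Cstb, which encodes the cytosolic inhibitor cystatin B, stood at 1456, 1028, 1711 and 1405 TPM, a mean of 1400.1 ± 282 (SD, n = 4). Cstb was above Cst3 in 3 of the 4 libraries, and their ranges overlapped. Cst7, the gene of the lysosomal inhibitor cystatin F, stood at 9.89 ± 3.12 TPM. Stfa2l1, a stefin gene and the next in level, stood at 0.33, 0, 3.31 and 0.74 TPM, highest in replicate 3. Only 2 of these genes, Cstb and Cst7, had enough counts to be tested. Neither was called variable, beside 33% of all genes tested, and Cst7 fell just under the threshold with a 1.99-fold range.

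The 10 other lysosomal peptidases and partners all reached 1 TPM in every library, and 5 of them were called variable, beside 33% of all genes tested. Psap, the precursor of the saposins that aid lipid breakdown, stood at 12986 ± 3537 TPM (SD, n = 4), and Lgmn, the asparaginyl endopeptidase that processes cathepsins, at 1647 ± 210. Cd74, the invariant chain that cathepsin S removes, stood at 289, 506, 383 and 507 TPM. The variable genes named by range were Prcp (2.85-fold), Dpp7 (2.25-fold) and Scpep1 (2.22-fold). On scaled counts every gene of this list, variable or not, was lowest in replicate 1, beside 32.6% of all genes tested. That library was also lowest for 7 of the 10 cathepsin and cystatin C genes. None of the 5 was highest in replicate 1, beside 35.8% of all genes tested.

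The 7 genes of sorting to lysosomes all reached 1 TPM in every library, and 1 was called variable, beside 33% of all genes tested. M6pr, a mannose 6-phosphate receptor, stood at 303, 217, 281 and 243 TPM, and Scarb2, the receptor that carries beta-glucocerebrosidase, at 61.3, 105, 101 and 98.4. Gnptab, a subunit of the enzyme that starts the mannose 6-phosphate tag, was the variable one at 49.2, 22.8, 24.7 and 28.1 TPM. It was highest in replicate 1, as were Ctsl and 35.8% of all genes tested. Nagpa, which uncovers the tag, stood at 44.9 ± 4.99 TPM.

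Of the 4 transcription factor genes of the TFEB family, 1 was called variable, beside 33% of all genes tested. Tfeb stood at 11.4, 22.7, 15.1 and 18.4 TPM, lowest in replicate 1. Tfec stood at 145.6 ± 30.0 TPM (SD, n = 4), Tfe3 at 83.2 ± 6.04 and Mitf at 24.9 ± 2.57. On scaled counts Tfec and Mitf were highest in replicate 1, as were 35.8% of all genes tested. Tfeb and Tfe3 were lowest there, as were 32.6%. The whole range of Mitf was 1.13-fold.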

How the data were processed

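Each library had a gene table and 2 transcript tables on mm10 with GENCODE M21. Per the file headers, the deposited tables hold expected counts, TPM and, for transcripts, the percent of a gene's TPM. For the aligner, the counter and the strand setting, nothing is given in the sources used here. The second transcript table, with estimated counts and TPM, was summed to genes and is called the second quantification; 86 genes have no transcript in it. Number-only, spike-in and phiX entries, 26345 in all, entered neither library sizes nor tests.

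Expected counts were rounded. Scaling, dispersion and the read file contrast used edgeR 4.0.16 (TMM, quasi-likelihood, Benjamini-Hochberg adjustment) with limma 3.58.1 in R 4.3.3, with DESeq2 1.42.0 as alternative. The chi-square test (3 degrees of freedom, mean count of at least 10, adjusted p below 0.05) used Python 3.11.15, SciPy 1.17.1 and pandas 2.3.3; it covers counting error only, since fragments are not independent molecules. Plots used matplotlib 3.10.9. Both tests were checked on simulated counts. Alternatives covered size factors, filters, the fold range, the pseudocount of 1, the quantification, length and each library left out.

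All 10 genes are named, with the 3 most abundant and up to 3 variable genes of each other list, and the 3 genes nearest in pattern. The genes and lists were chosen with earlier results of these data known. Other markers and genes named beyond that rule were chosen after their values were seen.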

Additional observations from a re-analysis of the deposited data

Results flagged for a closer look

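In 3 of 20 values checked over the 4 libraries (the level of each of the 10 genes, the main transcript share of the 8 with more than 1 transcript, the summed level and the ratio of Cst3 to cysteine cathepsins), 1 library lay far from the others, with a gap to its nearest neighbour above Dixon's critical share of the whole range. Chance alone marks about 1 in 20 such groups. The level of Ctsc was 820.53 TPM in replicate 2, with a gap of 0.906 of the range. The level of Ctsz was 1095 TPM in replicate 1, with a gap of 0.955. The share of the main Ctsd transcript was 99.28% in replicate 3, with a gap of 0.881, and in the second quantification replicate 3 did not stand apart.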

How the results depend on the processing

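The summed level of the 10 genes, 31903 TPM, was 25037 TPM in the second quantification, 36500.3 TPM without ribosomal RNA and mitochondrially encoded genes, and 26920.1 TPM with counts set on the length of each main transcript, an alternative chosen after seeing the data. Leaving out 1 library gave 30812 to 32951 TPM. The ratio of Cst3 to cysteine cathepsins, 0.0635, was 0.0828 with main transcript lengths and 0.167 without Ctsb, both chosen after seeing the data, and 0.0601 to 0.0677 with 1 library left out. The number of genes called variable, 2, was 6 at a 1.5-fold range (58.2% of all genes) and 0 to 2 with 1 library left out, being 0 without replicate 1. The median SD was 0.18 to 0.32 with 1 library left out. The read file contrast called 0 of the 10 under every alternative run, with a lowest adjusted p of 0.15. The sign of the difference turned with 1 library left out for Ctsl (-0.75, but 0.35 without replicate 1), Ctsb (0.13, but -0.09 without replicate 1), Ctsc (-0.39, but 0.23 without replicate 2) and Cst3 (-0.04, but 0.15 without replicate 2 and 0.17 without replicate 3), none of them called. Of the values for single genes, 78 alternatives stayed within the spread between libraries (1 SD) and 12 moved beyond it. The 78 include every mean with 1 library left out, which with 4 libraries cannot move by 1 SD. They also include values of Ctsk and Ctsz that are fixed by their 1 annotated transcript. The 78 are therefore no measure of robustness. Levels moved for 5 genes in the second quantification, 3 without ribosomal RNA and mitochondrially encoded genes, and 2 with main transcript lengths. No paired analysis was possible because all libraries belong to 1 group. With 4 libraries and no unstimulated cells, differences between genes and between libraries are all that could be measured. Ctsk had the fewest counts of the 10, and so the widest relative counting error.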
